A study of Saccharomyces cerevisiae with 4 samples.

Results

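Yeast cells make fatty acids from acetyl-CoA, which acetyl-CoA carboxylase turns into malonyl-CoA and the fatty acid synthase complex then builds into saturated acyl chains. Chains are desaturated and elongated in the endoplasmic reticulum, and free fatty acids are activated by acyl-CoA synthetases. Snf1, the yeast AMP-activated protein kinase, is best known in this pathway as the kinase that phosphorylates and inhibits the carboxylase Acc1, a control on the enzyme rather than on its transcript. The 10 genes described here cover these steps: ACC1, HFA1, FAS1, FAS2, OLE1, MGA2, ELO1, FAA1, FAA4 and ACB1. They were chosen by name for their place in the pathway, with earlier results of these data known. Every probe set that the platform annotation assigns to 1 of them, and to no other gene, was taken. This gave 24 of the 9275 non-control probe sets of the array, since FAS1 and FAS2 have 8 each and the other genes have 1 each.

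The samples were Saccharomyces cerevisiae strains expressing either Snf1-I132G, a form of the kinase open to the inhibitor 2NM-PP1, or wild-type Snf1. Both were grown in SC-ura medium with 2% glucose, were held for 120 min in 2% raffinose with 0.05% glucose, and then had 40 min with 2NM-PP1 at 25 µM. There were 2 Affymetrix Yeast Genome S98 arrays per group, and RNA of 3 transformants had been combined for each strain. Every culture received the inhibitor, and so the I132G change itself and inhibition of the kinase cannot be told apart. The labels do not say whether the strains kept a chromosomal SNF1 gene. Nothing in the labels says that the 2 arrays of a group came from separate cultures, so each p-value measures only the spread between arrays, which may be technical. The limma test used below takes that spread partly from other probe sets, with 3.63 prior and 2 residual degrees of freedom. A standard error is thus not that of the gene's own arrays alone.

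ACC1, FAS1 and OLE1 were lower in Snf1-I132G, and the other 7 genes did not pass the test. Signals are MAS5 values in arbitrary units, and a difference is that of log2(signal + 16), Snf1-I132G minus Snf1, given with its standard error (SE). A probe set was called where limma's Benjamini-Hochberg adjusted p over all 6956 tested probe sets was below 0.05. With each gene at its brightest probe set, 3 of 10 genes fell and 0 rose. The same test called 27.6% of all tested probe sets, 17.4% lower and 10.2% higher, so a count of 3 in 10 is close to the background. The median difference of the 10 genes was -0.28, against -0.10 over all tested probe sets. The arrays also differed in their median signal, which was 131.9 and 139.4 in Snf1-I132G, against 151.6 and 161.3 in Snf1, and whether they are centred on it bears on the smaller calls below. The lowest difference was that of ACC1 and the highest that of ELO1, which did not pass.

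**Figure D1:**
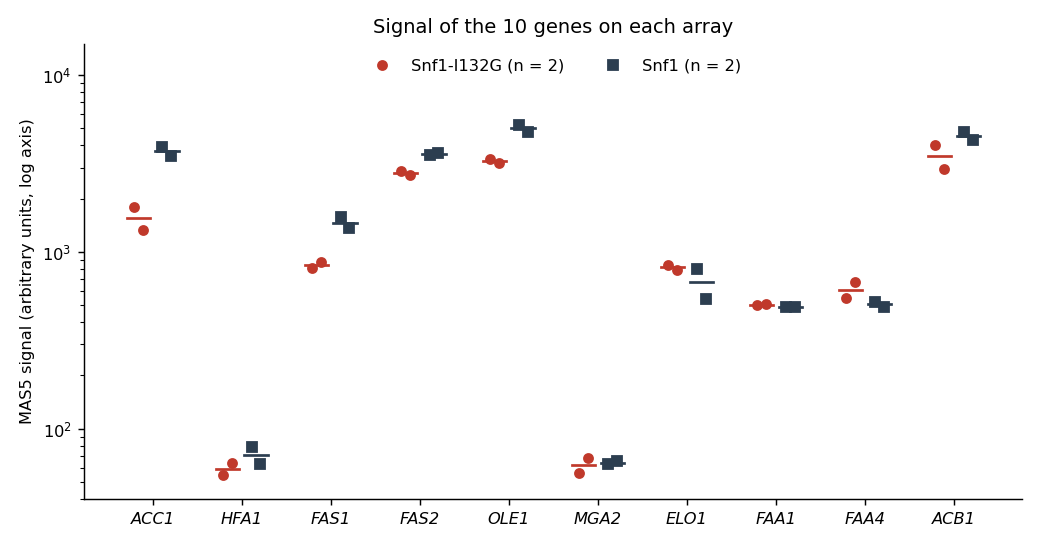
MAS5 signal (arbitrary units, log axis) of the 10 genes at their brightest probe set, with a point for each array and a bar at the mean of 2 arrays, Snf1-I132G at left and Snf1 at right of each gene. ACC1, FAS1, FAS2, OLE1 and ACB1 have both Snf1-I132G arrays below both Snf1 arrays, while HFA1, MGA2 and ELO1 overlap. The height of a gene's points depends on its probes and cannot be compared between genes.

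Of the carboxylase genes ACC1 was called and HFA1 was not, and the difference between them was not tested. ACC1 (YNR016C) encodes the cytosolic acetyl-CoA carboxylase, which catalyses the committed step of fatty acid synthesis. It measured 1784 and 1323 on arrays of Snf1-I132G, against 3924 and 3503 on those of Snf1. Both Snf1-I132G arrays lay far below both Snf1 arrays, with a gap wider than the spread within either group. The means were 1554 ± 326 for Snf1-I132G and 3714 ± 298 for Snf1 (SD, n = 2 each), so that Snf1-I132G had 41.8% of the Snf1 mean. The log2 difference was -1.26 ± 0.20 (limma, adjusted p = 0.0095). The difference was -1.13 within pair 1 and -1.39 within pair 2, the pairs being the same-numbered arrays of the 2 groups. Of all tested probe sets, 5.53% had a lower difference than ACC1.

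HFA1 (YMR207C) encodes the mitochondrial acetyl-CoA carboxylase, which supplies malonyl-CoA to the separate fatty acid synthesis system of that organelle. Its signal was 54.9 and 63.6 in Snf1-I132G, against 79.1 and 62.9 in Snf1. The groups overlapped, and 1 of the 2 pairs showed a difference near 0. The log2 difference was -0.21 ± 0.20 with a 95% interval of -0.69 to 0.28 (limma, adjusted p = 0.47). HFA1 was dim, and whether its probes also detect the related ACC1 transcript was not tested. The log2 ratio of ACC1 to HFA1 within an array was 4.67 and 4.07 in Snf1-I132G, against 5.37 and 5.48 in Snf1, a mean shift of -1.06.

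Fatty acid synthase is a complex of the beta subunit encoded by FAS1 (YKL182W) and the alpha subunit encoded by FAS2 (YPL231W). FAS1 fell on most of its probe sets, whereas no tested FAS2 probe set passed on the deposited scale without the pair as a block. The brightest FAS1 probe set, 2970_s_at, gave 805 and 875 in Snf1-I132G, against 1565 and 1361 in Snf1. The arrays did not overlap, and the gap was wider than the spread within each group. The means were 840 ± 49.1 for Snf1-I132G and 1463 ± 144 for Snf1 (SD, n = 2 each), and the log2 difference was -0.79 ± 0.16 (limma, adjusted p = 0.019). Another 4 sets were called lower, 2967_s_at at -0.90 ± 0.23, 2966_s_at at -0.88 ± 0.18, 2969_s_at at -0.95 ± 0.16 and 2968_s_at at -0.76 ± 0.18. These 5 sets all carry the suffix _s_at, which Affymetrix gives to probe sets that can match more than 1 target sequence, and probe sets of 1 gene are no replicates of each other. With median centring 2966_s_at and 2969_s_at were still called, while 2970_s_at was at -0.60 (limma, adjusted p = 0.052). With quantile normalization only 2970_s_at and 2969_s_at of these sets were still called. Leaving out any array but replicate 2 of Snf1-I132G also ended the call of 2970_s_at, and its adjusted p ran from 0.0014 to 0.13 over all alternatives.

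The plain set 10781_at had 699 and 533 in Snf1-I132G, against 1098 and 910 in Snf1. Its groups did not overlap, yet its log2 difference of -0.70 ± 0.20 just missed the threshold (limma, adjusted p = 0.052, and 0.0021 with the pair as a block). Over all alternatives its adjusted p ran from 0.0021 to 0.24. The sets 2964_at and 2965_g_at did not follow the other 6. In 2964_at the signal was 333 and 360 in Snf1-I132G, against 384 and 292 in Snf1, and in 2965_g_at it was 218 and 124 in Snf1-I132G, against 238 and 126 in Snf1. Both sets overlapped between groups, at log2 differences of 0.05 ± 0.19 and -0.07 ± 0.37. Where on the transcript each set lies was not used here, so the 2 patterns cannot be assigned to parts of the gene.

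FAS2 was measured at 2878 and 2731 in Snf1-I132G, against 3520 and 3625 in Snf1, on its brightest probe set, 7973_at. The Snf1-I132G arrays were lower without overlap. The log2 difference was -0.35 ± 0.14 with a 95% interval of -0.71 to 0.01 (limma, adjusted p = 0.13, and 0.039 with the pair as a block). This set was also called lower with quantile normalization, at -0.48 (limma, adjusted p = 0.043). Centring on hybridization controls called it lower too, at -0.58 (limma, adjusted p = 0.039). Its adjusted p ran from 0.039 to 0.50 over the alternatives, so whether FAS2 is called depends on the scaling and on the block. The other 6 tested FAS2 sets had differences between -0.43 and 0.30. The 8th set, 2601_at, was too dim for the filter, with signals of 1.82 and 8.84 in Snf1-I132G against 23.0 and 27.5 in Snf1, and it was called lower only when no filter was used.

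The median difference over probe sets was -0.78 for the 8 FAS1 sets and -0.19 for the 7 tested FAS2 sets. The log2 ratio of FAS1 to FAS2 on their brightest sets was -1.82 and -1.62 in Snf1-I132G, against -1.16 and -1.40 in Snf1. This ratio was lower on both Snf1-I132G arrays, by a mean of 0.44, but the gap between groups was only about as wide as the spread within each. No ratio was computed with the FAS1 sets 2964_at and 2965_g_at, whose differences were 0.05 and -0.07. Quantile normalization, which does not scale by a constant factor, brought the 2 sets closer together. It gave log2 differences of -0.68 for FAS1 and -0.48 for FAS2, against -0.79 and -0.35 on the deposited scale. Whether the 2 genes changed by different amounts was not tested.

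**Figure D2:**
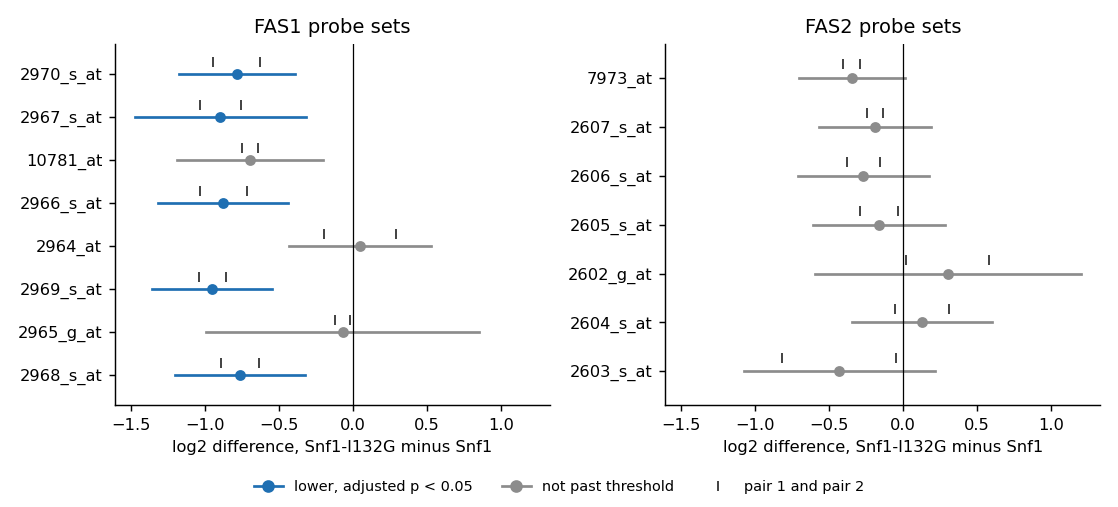
Log2 differences (Snf1-I132G minus Snf1) of the FAS1 probe sets (left) and the tested FAS2 probe sets (right), ordered by brightness from the top, with 95% intervals from limma and ticks for the differences within pair 1 and pair 2. On the left 5 sets are called lower, 10781_at lies just outside the threshold, 2964_at and 2965_g_at lie near 0, and no FAS2 set is called.

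OLE1 (YGL055W) encodes the acyl-CoA desaturase, the enzyme that makes the monounsaturated fatty acids of yeast. It was at 3337 and 3201 in Snf1-I132G, against 5245 and 4738 in Snf1. The groups were clearly apart and each was tight, with means of 3269 ± 96.0 for Snf1-I132G and 4991 ± 358 for Snf1 (SD, n = 2 each). The log2 difference of -0.61 ± 0.15 passed (limma, adjusted p = 0.035), and it was -0.65 in pair 1 and -0.56 in pair 2. Centring the arrays on their medians ended the call, at -0.42 (limma, adjusted p = 0.15), and so did leaving out any 1 of the 4 arrays, at -0.68 to -0.53 (adjusted p of 0.063 to 0.23).

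MGA2 (YIR033W) encodes a membrane-bound activator of OLE1 that is released from the endoplasmic reticulum by ubiquitin-dependent processing. Its transcript was at 56.3 and 68.0 in Snf1-I132G, against 63.2 and 65.4 in Snf1. The 2 Snf1 values lay between the 2 Snf1-I132G values. The log2 difference was -0.04 ± 0.18, with an interval of -0.50 to 0.41. Its sign turned under quantile normalization and median centring, and as its activity depends on processing, its transcript says nothing of that. SPT23, which encodes the related activator, had a difference of -0.23 ± 0.17 (limma, adjusted p = 0.35).

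ELO1 (YJL196C) encodes the elongase of medium-chain acyl-CoA. It was at 845 and 793 in Snf1-I132G, against 800 and 544 in Snf1. The groups overlapped because 1 Snf1 array was as high as the Snf1-I132G arrays. At 0.31 ± 0.22, with an interval of -0.24 to 0.85, the log2 difference did not pass (limma, adjusted p = 0.34).

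FAA1 and FAA4 encode the main long-chain acyl-CoA synthetases, which activate imported and internal fatty acids. FAA1 (YOR317W) was almost level, at 499 and 504 in Snf1-I132G against 486 and 489 in Snf1. The arrays did not overlap, but the gap was tiny, a log2 difference of 0.04 ± 0.15 with an interval of -0.33 to 0.41. Its sign turned to -0.19 when arrays were centred on hybridization controls. FAA4 (YMR246W) was at 552 and 673 in Snf1-I132G, against 523 and 486 in Snf1. Both Snf1-I132G arrays were above both Snf1 arrays, at a log2 difference of 0.27 ± 0.17 with an interval of -0.16 to 0.69 (limma, adjusted p = 0.29).

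ACB1 (YGR037C) encodes the acyl-CoA-binding protein, which carries newly made acyl-CoA esters. Its signal was 4045 and 2939 in Snf1-I132G, against 4780 and 4284 in Snf1. The groups did not overlap, although the 2 Snf1-I132G arrays were far apart. Its log2 difference, -0.39 ± 0.20, missed the threshold (limma, adjusted p = 0.21, and 0.033 with the pair as a block). Over its alternatives the adjusted p ran from 0.033 to 0.56.

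Counting probe sets, 7 of the 23 tested were lower and 0 were higher, namely 1 of ACC1, 5 of FAS1 and 1 of OLE1, where 17.4% of all tested probe sets were lower and 10.2% higher. As most of these are FAS1 sets, the count over genes above does not weight FAS1 more than the others. The arrays of the 2 groups did not overlap for 7 of 10 genes, 5 lower and 2 higher in Snf1-I132G. Over all tested probe sets 67.1% did not overlap, 40.9% lower and 26.2% higher, so that count is near the background. Among the members ACC1 alone was called under all 14 alternatives, at differences of -1.50 to -1.05. The pair as a block called 1984 of all tested probe sets lower, against 1212 without it, so 17.4% is no background for it. The 17.4% is no background for the fits that leave out an array either. With the pair as a block 10 member probe sets were lower, the 7 above and 10781_at of FAS1, 7973_at of FAS2 and ACB1. Leaving out replicate 1 of Snf1-I132G left 4, replicate 2 of Snf1-I132G 4, replicate 1 of Snf1 ACC1 alone, and replicate 2 of Snf1 2, ACC1 and 2967_s_at of FAS1.

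**Figure D3:**
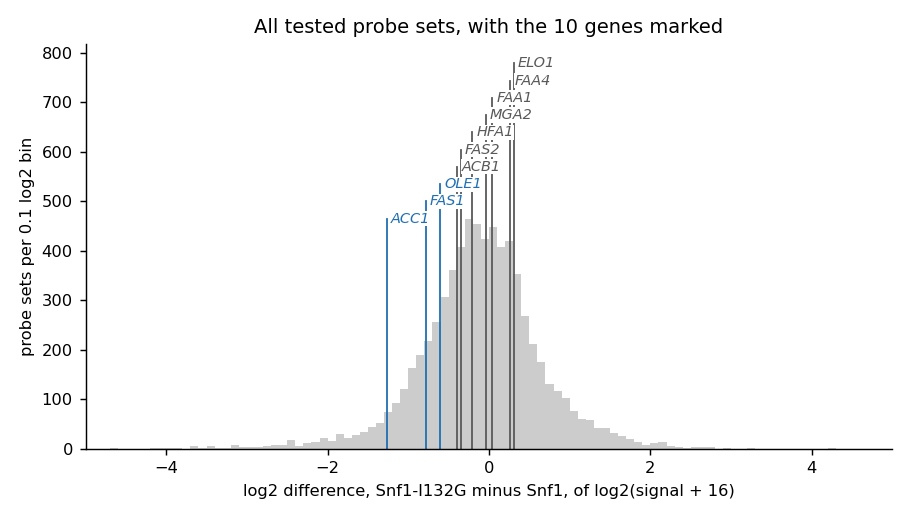
Number of tested probe sets in each 0.1-wide bin of log2 difference (Snf1-I132G minus Snf1), with a line at the brightest probe set of each of the 10 genes, blue where called lower and grey where not called. ACC1 stands in the lower tail at -1.26, FAS1 and OLE1 follow at -0.79 and -0.61, and the other 7 lie between -0.39 and 0.31.

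The other genes of the pathway were taken as a list of 24 by their role, also with earlier results known, and all 24 were tested. Of these 3 rose, 4 fell and 17 did not pass, at a median difference of -0.26, against -0.10 over all tested probe sets. With 10.2% of all tested probe sets higher and 17.4% lower, both counts are near the background. Under the block 3 rose and 9 fell, and with centring on hybridization controls 1 rose and 8 fell. Over all tested probe sets the block called 1354 higher and 1984 lower. Centring on hybridization controls called 490 higher and 2114 lower. The test on the deposited scale without the block called 709 higher and 1212 lower, so its shares are no background for these counts. The 3 rises were CEM1, MCT1 and ELO3, and the 4 falls were ACS1, ETR1, FAA2 and UBX2.

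Acetyl-CoA for the carboxylase comes from the acetyl-CoA synthetases ACS1 and ACS2. ACS1, the form repressed by glucose, was at 346 and 139 in Snf1-I132G, against 642 and 830 in Snf1. The Snf1-I132G arrays were lower but differed from each other, so that the pairs gave -0.86 and -2.45. Its log2 difference was -1.65 ± 0.41 (limma, adjusted p = 0.035), and it lost the call with quantile normalization (adjusted p = 0.064), with median centring (0.051), and on leaving out Snf1 replicate 1 (0.052) or Snf1 replicate 2 (0.095). ACS2 was at 0.19 ± 0.25, and BPL1, which encodes the ligase that attaches biotin to the carboxylases, at -0.04 ± 0.18. Neither passed.

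The mitochondrial synthesis genes, which use malonyl-CoA made by Hfa1, included calls in both directions. Among the 7 genes 2 rose, 1 fell and 4 did not pass, against 10.2% higher and 17.4% lower over all tested probe sets. ETR1, for the enoyl reductase of the last step of each cycle, was at 134 and 152 in Snf1-I132G, against 814 and 874 in Snf1. The 2 groups were tight and far apart, at a log2 difference of -2.44 ± 0.16 (limma, adjusted p = 0.0018), and it was called under all 14 alternatives. CEM1, for the ketoacyl synthase, was at 605 and 673 in Snf1-I132G, against 366 and 332 in Snf1, and differed by 0.84 ± 0.16 on the log2 scale (limma, adjusted p = 0.016). MCT1, for the malonyl transferase, was at 501 and 822 in Snf1-I132G, against 270 and 350 in Snf1, and differed by 1.02 ± 0.28 on that scale (limma, adjusted p = 0.044). MCT1 was not called without the filter, with centring on hybridization controls, or without replicate 2 of Snf1-I132G or either array of Snf1, and CEM1 was not called without replicate 2 of Snf1-I132G or either array of Snf1. The dehydratase gene HTD2 was at -0.65 ± 0.19 (limma, adjusted p = 0.054, and 0.013 with the block; 0.013 to 0.23 over its alternatives). The acyl carrier gene ACP1 at -0.31 ± 0.17, the reductase gene OAR1 at 0.37 ± 0.35 and PPT2, which encodes the enzyme that activates the carrier, at 0.12 ± 0.19 did not pass.

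Very long chains are made by elongases and a shared cycle of reduction and dehydration. ELO3, for the elongase of the longest chains, was at 837 and 899 in Snf1-I132G, against 543 and 388 in Snf1. It rose without overlap by a log2 difference of 0.89 ± 0.20 (limma, adjusted p = 0.027). It lost the call with centring on hybridization controls, and without replicate 1 or 2 of Snf1-I132G or replicate 2 of Snf1 (adjusted p of 0.059 to 0.15). ELO2, another elongase gene, was at -0.16 ± 0.17 and did not pass. The remaining genes of the cycle, IFA38, PHS1 and TSC13, had differences of -0.43 ± 0.33, -0.66 ± 0.22 and -0.63 ± 0.32 and did not pass, though PHS1 and TSC13 did with the block (limma, adjusted p = 0.012 and 0.016). Over their alternatives the adjusted p ran from 0.012 to 0.26 for PHS1 and from 0.016 to 0.58 for TSC13.

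**Figure D4:**
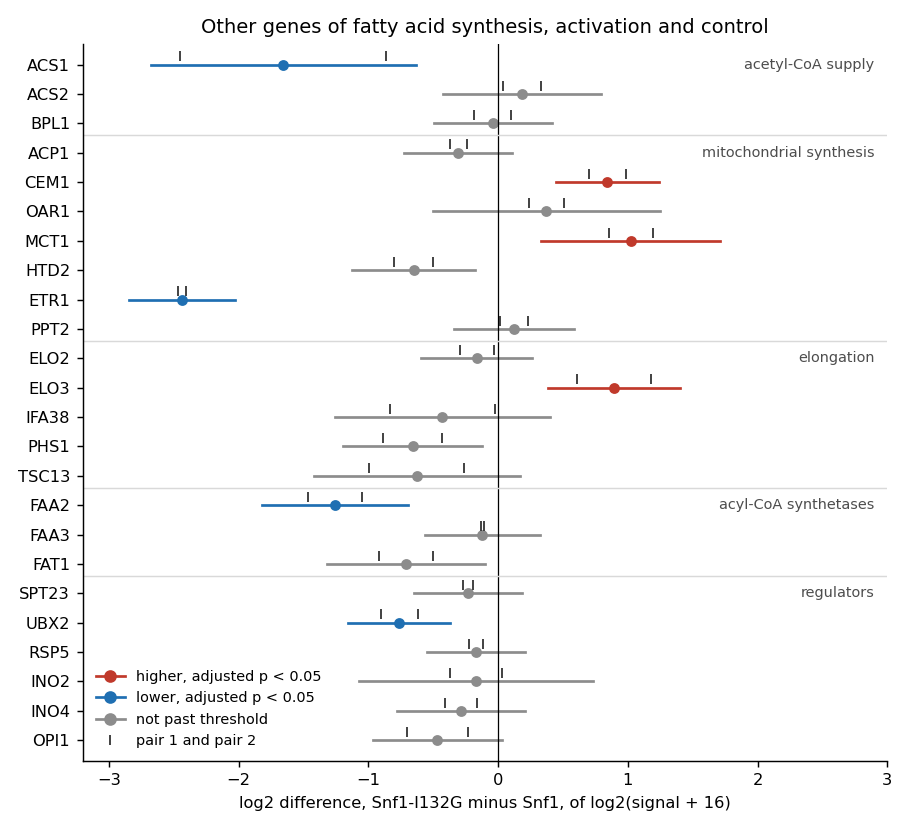
Log2 differences (Snf1-I132G minus Snf1) of the 24 other genes by role, with 95% intervals from limma and ticks for pair 1 and pair 2. CEM1, MCT1 and ELO3 are called higher, ACS1, ETR1, FAA2 and UBX2 lower, and the other 17 are not past the threshold.

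Of the other acyl-CoA synthetase genes, FAA2, which encodes a peroxisomal enzyme that activates medium chains for beta-oxidation, was at 45.3 and 49.0 in Snf1-I132G, against 111 and 163 in Snf1. It fell by 1.26 ± 0.23 on the log2 scale (limma, adjusted p = 0.014), and kept the call in 12 of the 13 alternatives that tested it. The exception was the fit without replicate 2 of Snf1, at a difference of -1.01. FAA2 was dim in Snf1-I132G, and the size of its fall moved with the pseudocount, from -1.49 at 1 to -0.84 at 64. FAT1, for a fatty acid transporter and very long chain synthetase, was at -0.71 ± 0.24 (limma, adjusted p = 0.084, and 0.011 with the block; 0.011 to 0.27 over its alternatives). FAA3 was dim in both groups, at -0.12 ± 0.18, and did not pass.

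Among 6 regulator genes 1 fell, a share near the 17.4% of all tested probe sets. UBX2, which encodes a membrane protein that recruits the Cdc48 complex and is needed for processing of Mga2 and Spt23, was at 498 and 454 in Snf1-I132G, against 775 and 864 in Snf1. The difference of -0.76 ± 0.16 passed (limma, adjusted p = 0.020), but not with quantile normalization (0.051), nor without replicate 2 of Snf1-I132G, replicate 1 of Snf1 or replicate 2 of Snf1 (0.065, 0.085 and 0.14). RSP5, for the ubiquitin ligase that acts on Mga2 and Spt23, was at -0.17 ± 0.15. INO2 and INO4, which encode the activator pair of phospholipid and fatty acid synthase genes, were at -0.17 ± 0.36 and -0.28 ± 0.20, and OPI1, for their repressor, at -0.47 ± 0.20. None of these 4 passed, though OPI1 did with the block (limma, adjusted p = 0.028; 0.028 to 0.61 over its alternatives).

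Ratios within an array do not depend on the scaling of arrays by a constant factor, apart from the pseudocount. Their height depends on the probes of both genes, so only the shift between groups can be read. The log2 ratio of ELO1 to ELO3 was 0.01 and -0.18 in Snf1-I132G, against 0.54 and 0.47 in Snf1, a mean shift of -0.59. That of ELO1 to ELO2 was 1.91 and 2.01 in Snf1-I132G, against 1.80 and 1.18 in Snf1, a mean shift of 0.47 that rests mainly on replicate 2 of Snf1. Smaller shifts were found for FAA1 over FAA4, at -0.22, and for MGA2 over SPT23, at 0.19. The log2 ratio of FAA1 to FAA4 was -0.14 and -0.41 in Snf1-I132G, against -0.10 and 0.01 in Snf1. Its shift rests mainly on replicate 2 of Snf1-I132G. All 6 ratios had no overlap between the groups. Of single probe sets 67.1% had none, but the share over ratios of 2 genes was not computed, and ELO1 enters 2 of the ratios. The shifts kept their sign with pseudocounts of 1 and 64.

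**Figure D5:**
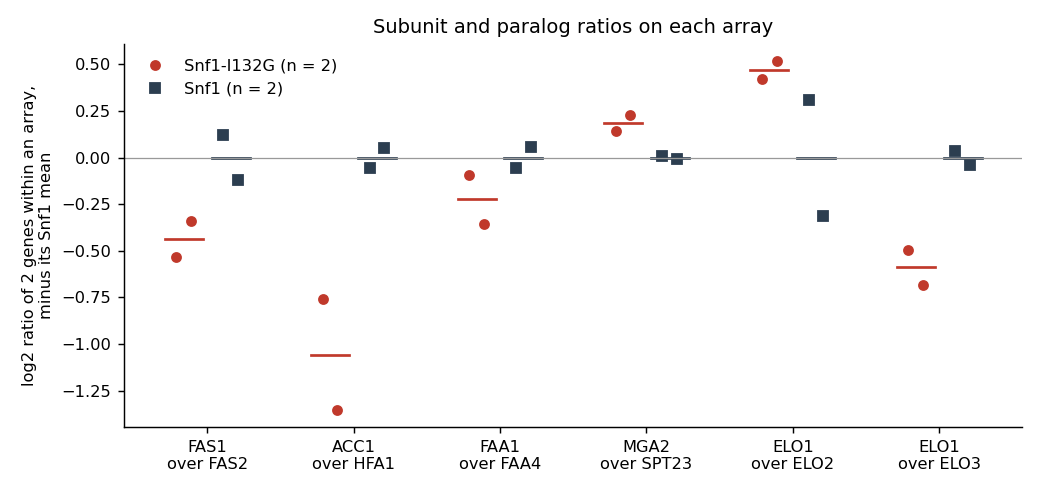
Log2 ratio of 2 genes on each array, minus the mean of the 2 Snf1 arrays, for 6 pairs of subunits or paralogs, with a bar at the group mean (n = 2 each). Relative to Snf1, the Snf1-I132G ratios lie lower for ACC1 over HFA1 (-1.06), ELO1 over ELO3 (-0.59), FAS1 over FAS2 (-0.44) and FAA1 over FAA4 (-0.22), and higher for ELO1 over ELO2 (0.47) and MGA2 over SPT23 (0.19).

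Peroxisomal beta-oxidation, the pathway that breaks fatty acids down, was set beside these genes. Of its 12 listed genes POX1, DCI1 and PXA1 were too dim to test, and ECI1 and CTA1 were dim in Snf1-I132G and passed the filter only through their Snf1 signal, so no count or median of the list is given. TES1, for a peroxisomal thioesterase, was at 354 and 263 in Snf1-I132G, against 728 and 697 in Snf1. Its log2 difference was -1.18 ± 0.19, and FOX2, the multifunctional enzyme gene, was at -1.06 ± 0.19 (limma, adjusted p = 0.011 and 0.013). SPS19, MDH3 and PEX11 were also called lower, at -1.48 ± 0.23, -1.30 ± 0.16 and -1.03 ± 0.16. So was POT1, at -3.87 ± 0.19, but its Snf1-I132G signals of 31.9 and 36.5 lay near the 25th percentile of those arrays. PXA2, for a subunit of the peroxisomal transporter of acyl-CoA, was at 0.12 ± 0.21 and did not pass. The beta-oxidation genes were not followed through the alternatives, so how far these calls depend on scaling or on a single array is not known. Whether synthesis and breakdown genes differ was not tested.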

How the data were processed

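The values analysed are signal intensities that the authors deposited. The submitters' processing notes name MAS5, with no version. The trimmed mean was 500 to 501 on all 4 arrays, so each array had been scaled to 1 average. The platform annotation named a probe set where it gives 1 gene, and all 10 genes matched RefSeq assembly R64, used for systematic names only. No gene, promoter or protein sequence was used.

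From the deposited intensities log2(signal + 16) was computed. The 60 control probe sets were left out, and those below the 25th percentile of mean log2 signal, which left 6956 (23 of 24 member sets). Groups were compared with limma 3.58.1 in R 4.3.3 (lmFit, then eBayes with a trend on intensity; no covariates; 2 residual degrees of freedom), with Benjamini-Hochberg adjustment over all tested sets. A listed gene with several sets was taken at the brightest. All members and genes of the lists could be named. The members and lists were chosen with earlier results of these data known. The fit was run on simulated data with the same spread for all probe sets and independent arrays. Real arrays differ in both respects, so that run does not measure the error rate here.

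Alternatives were 3 scalings (quantile, array median, 9 hybridization controls), pseudocounts of 1 and 64, no filter and the 50th percentile, eBayes without trend and robust, the pair as a block, and each array left out. Same-numbered arrays were taken as pairs because their file labels share a string, a reading that is not certain. Their deviations from the group means correlated at r = 0.515 across probe sets.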

Additional observations from a re-analysis of the deposited data

How the results depend on the processing

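The count of member probe sets called lower was 7 on the deposited scale, 3 with median centring (ACC1 and 2 of FAS1), and 1 to 4 when an array was left out; member rises stayed at 0 under all alternatives (limma). In the list of 24, falls numbered 2 with quantile normalization, 8 with centring on hybridization controls, 9 with the replicate block and 1 to 7 when an array was left out, against 4, and rises numbered 1 with centring on hybridization controls and 0 to 2 when an array was left out, against 3. Over all probe sets 709 were higher and 1212 lower. The replicate block gave 1354 and 1984, centring on hybridization controls gave 2114 lower, and leaving out an array gave 325 to 664 higher and 451 to 1069 lower. Rises were 36.9% of calls, or 47.6% with quantile normalization, 54.1% with median centring and 18.8% with centring on hybridization controls, and these moved the median of all tested probe sets, -0.10 as deposited, to 0.02, 0.09 and -0.33. The block added ACB1, 7973_at of FAS2 and 10781_at of FAS1 to the calls, and HTD2, PHS1, TSC13, FAT1 and OPI1 in the list. It ended none. Quantile normalization and centring on hybridization controls also called 7973_at of FAS2 lower.

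Signs turned in 32 of 648 combinations of a probe set and an alternative, none of them called. Median centring turned FAS1 2965_g_at to 0.12, FAS2 2605_s_at to 0.021, MGA2 to 0.14, BPL1 to 0.14, ELO2 to 0.023, FAA3 to 0.065, INO2 to 0.013 and RSP5 to 0.014. Quantile normalization turned FAS1 2965_g_at to 0.11, MGA2 to 0.078, BPL1 to 0.10 and ELO2 to 0.0090. Centring on hybridization controls turned FAS1 2964_at to -0.19, FAS2 2604_s_at to -0.11, FAA1 to -0.19, ACS2 to -0.047 and PPT2 to -0.11. Leaving out an array gave -0.14 to 0.23 for FAS1 2964_at, -0.49 to 0.35 for 2965_g_at, -0.20 to 0.80 for FAS2 2602_g_at, -0.022 to 0.28 for 2604_s_at, -0.15 to 0.066 for MGA2, -0.11 to 0.48 for ACS2, -0.13 to 0.043 for BPL1, -0.056 to 0.80 for OAR1, -0.021 to 0.27 for PPT2, -0.92 to 0.067 for IFA38 and -0.65 to 0.30 for INO2. The cause of these turns was not tested. When an array is left out, the single array that remains is taken to vary as the other group does. Dim genes such as HFA1, MGA2, BPL1 and FAA3 lie near the filter, and 2 arrays a group limit every value.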
